A study of Mus musculus with 30 samples.

Results

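The 40 genes described here work in DNA replication and mitosis. They were chosen by symbol from a table of 54146 genes, with 20 genes of S phase and 20 of mitosis, and all 40 were found, counted in every library and tested in every comparison. The study deleted B2_Mm2.Dicer1, a B2 short interspersed element in the first intron of Dicer1, from J774A.1 cells, a mouse macrophage-like line, and asked how interferon gamma (IFNG) then acts on transcription. Libraries of polyadenylated RNA came from 3 wild-type clones (WT1, WT2 and WT3) and 2 knockout clones (KO1 and KO2). Every clone gave 3 untreated (UT) libraries and 3 libraries from cells exposed to mouse IFNG at 100 ng/mL over 4 h, so there were 30 libraries, 18 from WT and 12 from KO clones. The count columns name untreated libraries 0 h, and no label says that their cells were kept for the same 4 h. Time in culture and IFNG therefore cannot be told apart. KO clones went through electroporation with Cas9 and a pair of guide RNAs, whereas WT clones were grown from single cells without it, so editing and electroporation cannot be told apart. Libraries of 1 clone are replicates of that clone only, no label says that they came from separate cultures, and p-values therefore measure the spread between these libraries.

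A cell licenses its replication origins in late mitosis and G1, when Cdc6 and Cdt1 load the Mcm2-7 helicase, and fires them in S phase after cyclin E and the E2F transcription factors have opened the way. Mitosis then depends on cyclin B and Cdk1, the Plk1 and Aurora kinases, kinetochore and spindle proteins, and the anaphase-promoting complex. Genes of these programmes are transcribed in waves over the cell cycle, the first typically through E2F sites and the second through CHR and CCAAT elements, and IFNG is known to slow the proliferation of macrophages. In RNA from a whole culture, fewer cells in a phase and less RNA per cell cannot be told apart.

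Promoter sequences are shown first because the replication and mitosis genes differed in the words their windows held. RefSeq promoter windows (GRCm38.p6, 250 bases before to 50 bases after each start) were matched to 33 of the 40 members, in 35 windows, and those of Aurkb, Ccna2, Ccne2, Gins2, Kif20a, Mcm4 and Tpx2 were not analysed here. The E2F words searched on both strands were TTTCCCGC, TTTCGCGC, TTTGCCGC and TTTGGCGC, which can overlap each other, the CHR word was TTTGAA and the last was CCAAT. An E2F word occurred in 47.4% of the 19 windows of replication genes, 6.25% of the 16 windows of mitosis genes and 2.26% of all 32851 windows. TTTGAA occurred in 15.8%, 68.8% and 17.9% of the same windows, and CCAAT in 73.7%, 87.5% and 37.4%. These matches are letters in a window and not measured binding sites. The stretches below, which end at the start site except for Cdc6, have E2F words in capitals. They lie at chr11:98908002-98908031 (plus strand, 30 bases around the match) for Cdc6, chr8:75109309-75109508 (plus) for Mcm5, chr1:128359706-128359905 (minus) for Mcm6 and chrX:93632156-93632355 (minus) for Pola1. In Mcm5 and Mcm6 a word on each strand overlaps, giving a longer run of capitals.
Cdc6: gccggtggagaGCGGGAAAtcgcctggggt
Mcm5: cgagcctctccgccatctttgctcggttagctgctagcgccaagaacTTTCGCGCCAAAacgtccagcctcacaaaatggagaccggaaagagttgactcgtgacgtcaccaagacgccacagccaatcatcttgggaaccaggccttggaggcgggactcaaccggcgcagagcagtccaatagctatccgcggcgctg
Mcm6: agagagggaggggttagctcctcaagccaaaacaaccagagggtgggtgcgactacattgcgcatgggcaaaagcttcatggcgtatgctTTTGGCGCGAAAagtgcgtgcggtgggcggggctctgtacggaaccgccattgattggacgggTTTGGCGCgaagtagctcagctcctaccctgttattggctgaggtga
Pola1: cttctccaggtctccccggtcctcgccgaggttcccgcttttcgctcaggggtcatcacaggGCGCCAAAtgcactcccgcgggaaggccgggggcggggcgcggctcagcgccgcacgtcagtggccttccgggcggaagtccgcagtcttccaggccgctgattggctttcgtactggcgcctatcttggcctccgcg

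The next stretches are from mitosis genes, with TTTGAA and CCAAT words of either strand in capitals. They lie at chr10:69352913-69353112 (minus) for Cdk1, chr4:118437344-118437543 (minus) for Cdc20 and chr11:99024190-99024389 (minus) for Top2a. Cdk1 was the one mitosis gene with an E2F word, left here in lower case.
Cdk1: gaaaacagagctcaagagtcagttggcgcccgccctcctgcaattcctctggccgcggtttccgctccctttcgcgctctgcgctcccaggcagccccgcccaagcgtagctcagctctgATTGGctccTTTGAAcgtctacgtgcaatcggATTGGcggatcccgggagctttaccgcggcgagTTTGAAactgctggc
Cdc20: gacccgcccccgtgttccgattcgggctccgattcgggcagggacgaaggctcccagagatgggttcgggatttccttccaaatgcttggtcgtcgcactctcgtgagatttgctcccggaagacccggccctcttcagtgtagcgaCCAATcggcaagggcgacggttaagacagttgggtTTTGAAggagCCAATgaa
Top2a: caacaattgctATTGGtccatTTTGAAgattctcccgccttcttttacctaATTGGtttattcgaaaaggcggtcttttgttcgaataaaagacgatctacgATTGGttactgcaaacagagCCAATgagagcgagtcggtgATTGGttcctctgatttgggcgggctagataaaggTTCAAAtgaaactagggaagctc

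**Figure D1:**
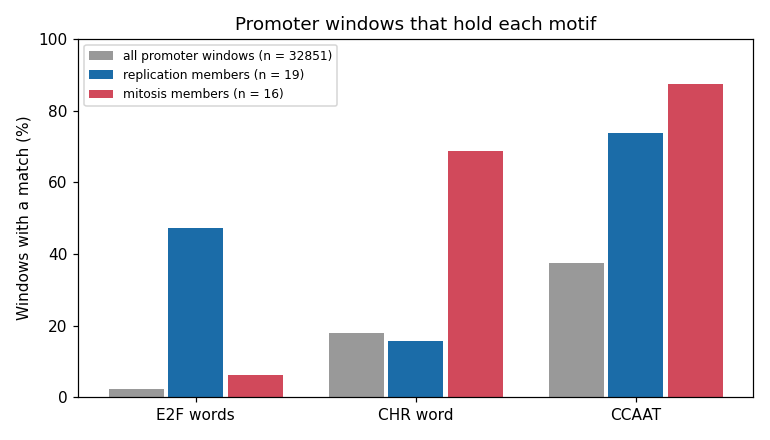
Percentage of promoter windows (y axis) that hold at least 1 E2F word, the CHR word TTTGAA or CCAAT (x axis), for all 32851 windows (grey), the 19 windows of replication genes (blue) and the 16 windows of mitosis genes (red). E2F words stand out in the blue bars (47.4%) and TTTGAA in the red bars (68.8%).

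Counted fragments ranged from 15566122 to 37992642 per library. All 8 macrophage markers were at 1 CPM (count per 1000000 fragments of the TMM-scaled library) or more in every library, whereas all 4 T cell, 3 B cell and 4 epithelial markers and 3 of 4 fibroblast markers stayed under 1 CPM throughout. IFNG was detectable in every clone, since the IFNG-induced transcription factor gene Irf1 lay between 16.7 and 26.1 CPM untreated and between 698.1 and 959.9 CPM after IFNG. Untreated Dicer1 was at 70.5 to 73.0 CPM in KO1 and 101.3 to 108.5 CPM in KO2, against 96.8 to 130.2 CPM in WT. The libraries of KO2 overlapped those of WT1 (96.8 to 110.3 CPM) and lay below those of WT2 (124.7 to 130.2 CPM) and WT3 (120.4 to 124.9 CPM). Dicer1 lies on chromosome 12, whose expressed genes had a median log2 shift of -0.36 in untreated KO1 against WT. The part of that shift in Dicer1 was not tested. The deleted element lies outside exons and was not counted itself. In WT1, replication genes summed to 2946 CPM in IFNG library 3, against 3401 and 3417 CPM in its other IFNG libraries. Among the 9 IFNG libraries of WT clones, this sum was not flagged by the check for values far from the others.

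Members were well expressed in untreated cells. The lowest count of any member in any library was 395, for Ccne2. Per kilobase of exon, the mean untreated level over 15 libraries ranged from 6.94 CPM per kb for Tyms, which makes thymidylate, to 243.9 CPM per kb for Pcna, the sliding clamp of DNA polymerases. Mki67, the proliferation marker, followed Pcna at 142.6 CPM per kb and Mcm6 came next at 112.5 CPM per kb.

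Most replication genes were lower after 4 h of IFNG, whereas mitosis genes moved less on the median and in both directions. The strongest decreases were in the genes that control entry into S phase. E2f2, an activating E2F factor, fell to 0.509 times its untreated level, the licensing genes Cdc6 and Cdt1 to 0.585 and 0.639 times, and cyclin E genes Ccne2 and Ccne1 to 0.776 and 0.777 times. Over all clones, with clone as a term, 18 of 20 replication genes were lower and 2 higher, while 10 of 20 mitosis genes were lower, 5 higher and 5 not called (edgeR's quasi-likelihood test, Benjamini-Hochberg adjusted p under 0.05). Calls were common in this comparison, since 28.3% of all 14525 genes tested were called lower and 24.9% higher. The median log2FC, the log2 of the IFNG level over the untreated level, was -0.19 for replication genes and -0.06 for mitosis genes, beside -0.01 over all genes tested. With counts summed per clone and treatment, so that the clone was the replicate, 33 of the 40 members were still called, among them 18 replication genes that were lower.

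**Figure D2:**
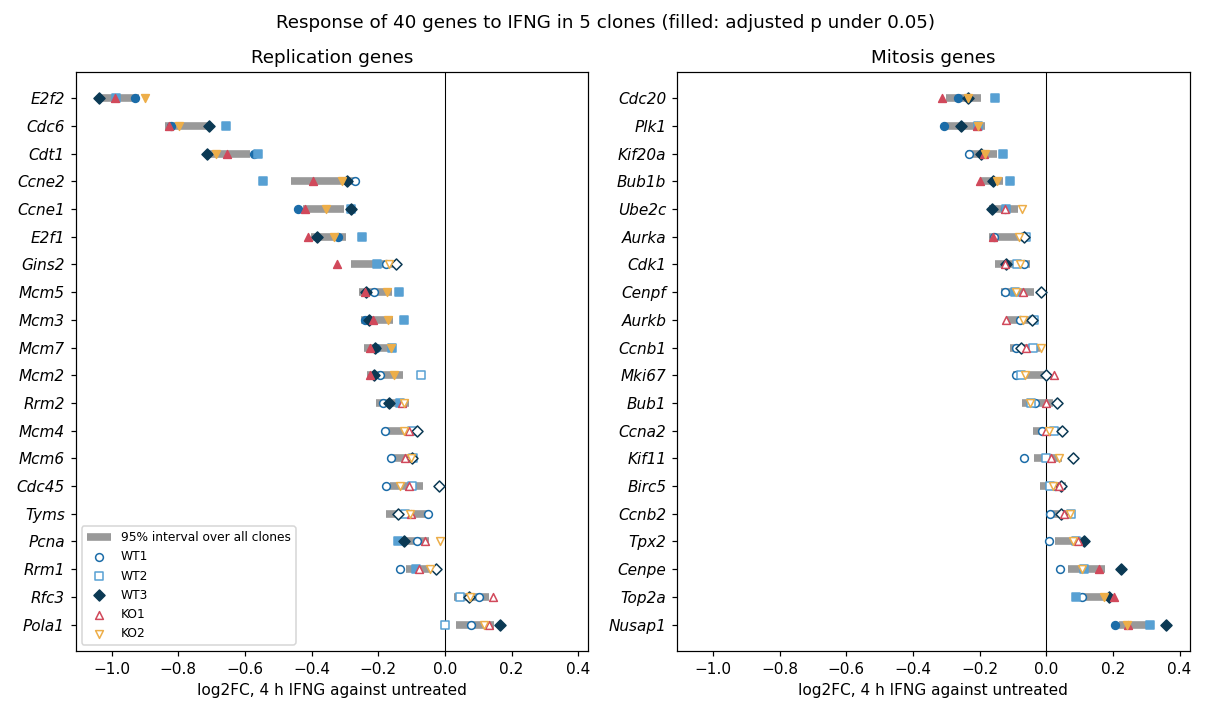
The log2FC of 4 h IFNG against untreated libraries (x axis) for each member (y axis), with replication genes on the left and mitosis genes on the right. Symbols are the 5 clones (filled where the adjusted p was under 0.05) and grey bars the 95% intervals over all clones, which run from near -1 for E2f2 to above 0.2 for Nusap1.

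The drop in E2f2 was seen in every library. In WT1, E2f2 stood at 56.2, 54.2 and 54.3 CPM untreated and at 31.4, 30.8 and 25.2 CPM after IFNG. In WT2 the values were 53.6, 57 and 54.7 CPM untreated and 28.5, 26.1 and 28 CPM after IFNG, and in WT3 58.1, 57.6 and 56.7 CPM against 28.9, 26.9 and 27.4 CPM. KO1 and KO2 libraries showed the same gap, with no overlap between treatments in any clone. E2f2 lay at 52.7, 52.1 and 55.3 CPM in untreated KO1 and 25.9, 25.7 and 27.4 CPM after IFNG, and at 47.3, 49.9 and 49.2 CPM in untreated KO2 and 28.1, 25.7 and 24.4 CPM after IFNG. Its log2FC over all clones was -0.97 ± 0.03 (SE, 15 against 15 libraries; edgeR adjusted p = 3.67e-26). Within clones the log2FC ran from -1.04 in WT3 to -0.90 in KO2. E2f1, its close relative, fell less, from a median of 73.2 CPM (68.5 to 77.0) to 58.1 CPM (54.2 to 63.3) in the 9 WT libraries and from 79.8 CPM (73.5 to 87.8) to 61.8 CPM (55.7 to 65.7) in the 6 KO libraries of each treatment. The log2FC of E2f1 was -0.35 ± 0.03 (SE), and its libraries did not overlap in any clone.

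Cdc6 is the ATPase that loads the helicase onto origins together with Cdt1. Untreated Cdc6 lay at 42.4, 47.7 and 47.3 CPM in WT1, 48.9, 54.0 and 50.2 CPM in WT2 and 47.4, 48.8 and 51.3 CPM in WT3. After IFNG it lay at 27.9, 28.7 and 22 CPM in WT1, 31.3, 34 and 30.9 CPM in WT2 and 29.7, 31.1 and 28.6 CPM in WT3. Every IFNG library was thus below every untreated library of any WT clone. In KO clones, Cdc6 went from 53.5, 53.8 and 49.7 CPM to 29.4, 29.8 and 27.3 CPM in KO1 and from 51.9, 50.1 and 47.5 CPM to 27.3, 30.4 and 28.4 CPM in KO2. The log2FC was -0.77 ± 0.03 (SE). Cdt1 fell from a median of 120 CPM (98.7 to 132) to 75.6 CPM (64.6 to 87.1) in WT and from 112 CPM (106 to 118) to 71.0 CPM (59.8 to 75.5) in KO libraries, a log2FC of -0.65 ± 0.03 (SE). Both licensing genes were called in all 5 clones.

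**Figure D3:**
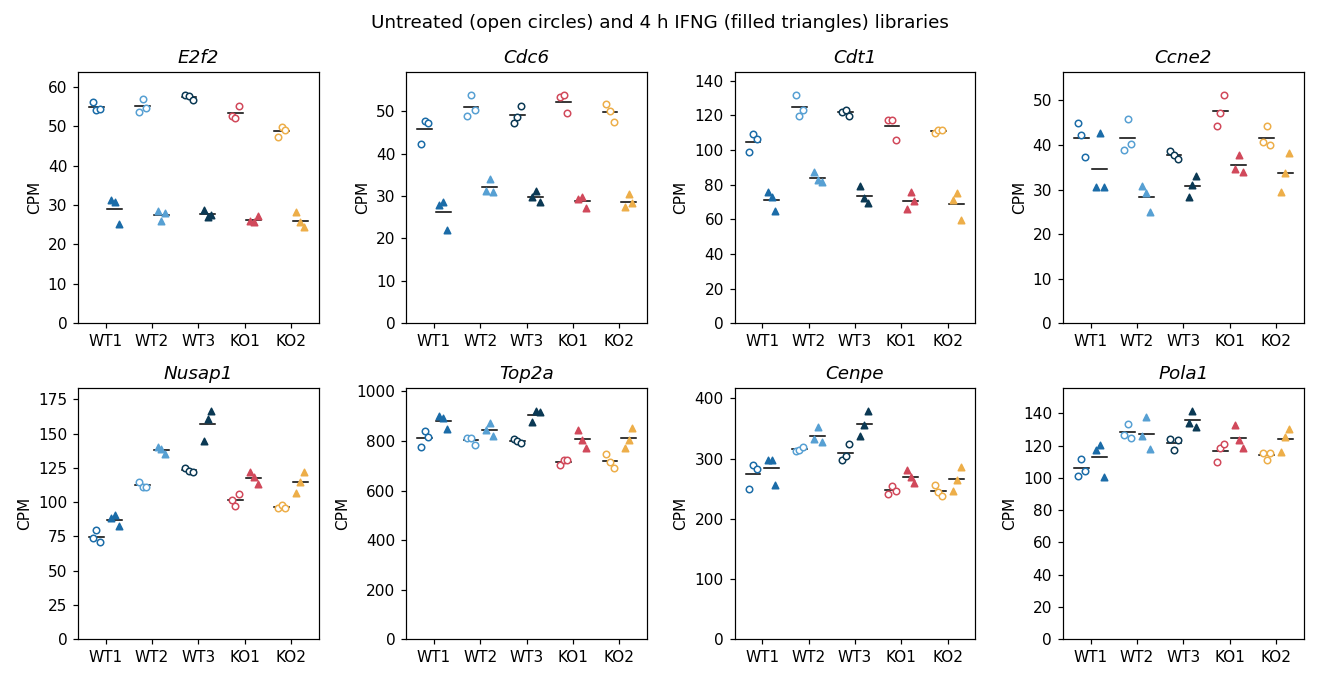
CPM of each library (y axis, from 0) by clone (x axis) for the 4 members with the most negative and the 4 with the most positive log2FC over all clones, untreated (open circles) or after 4 h IFNG (filled triangles), with the mean of 3 libraries as a black line. Treatments are separate in every clone for E2f2, Cdc6, Cdt1, Nusap1 and Top2a and overlap in at least 1 clone for Ccne2, Cenpe and Pola1.

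Cyclin E activates Cdk2 at the start of S phase. Ccne2 had a median of 39.0 CPM (36.9 to 45.9) in untreated WT and 30.7 CPM (25 to 42.8) in IFNG-treated WT libraries, and of 44.2 CPM (39.9 to 51.3) and 34.3 CPM (29.5 to 38.3) in KO libraries. The highest IFNG value, 42.8 CPM, came from library 2 of WT1 and was inside the untreated range, and Ccne2 was not called in WT1 (log2FC -0.27 ± 0.12 SE, edgeR adjusted p = 0.128). Its log2FC over all clones was -0.37 ± 0.05 (SE), and Ccne1, called in all 5 clones, gave -0.36 ± 0.03 (SE).

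The 6 subunits of the Mcm2-7 helicase moved together by a small amount. All were called lower over all clones, with log2FC from -0.21 for Mcm5 to -0.12 for Mcm6. In clones tested alone, Mcm3 was called in 5, Mcm5 and Mcm7 in 4, Mcm2 in 3, Mcm6 in 1 and Mcm4 in 0. Mcm5 went from a median of 350 CPM (310 to 365) to 299.9 CPM (244 to 331) in WT and from 355 CPM (347 to 373) to 305 CPM (287 to 323) in KO libraries, without overlap inside any clone. Of the genes that turn the loaded helicase on, Gins2, a subunit of the GINS complex, had a log2FC of -0.21 and its partner Cdc45 -0.12.

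Changes in Pcna, Rfc3 and Pola1, which act in DNA synthesis, were small and not all in 1 direction. Pcna was called lower with a log2FC of -0.09 ± 0.02 (SE), from a median of 531 CPM (495 to 623) to 492.8 CPM (449 to 572) in WT and from 645 CPM (572 to 748) to 629 CPM (570 to 696) in KO libraries, and these ranges overlapped. Rfc3, part of the clamp loader, and Pola1, the catalytic subunit of primase-associated polymerase alpha, were called higher at 0.08 and 0.09 (log2FC). In clones tested alone, Rfc3 was called in 0 and Pola1 in 1. Pola1 had a median of 123 CPM (101 to 133) in untreated and 126 CPM (100 to 141) in IFNG-treated WT libraries. Its call over all clones was lost without WT3 (log2FC 0.07) and in WT clones alone (0.07). Among genes for nucleotide supply, Rrm1 and Rrm2, the subunits of ribonucleotide reductase, and Tyms had log2FC of -0.08, -0.16 and -0.11. Rrm2 went from a median of 255 CPM (238 to 303) to 242 CPM (199 to 271) in WT and from 234 CPM (199 to 254) to 207 CPM (181 to 239) in KO libraries.

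Responses of replication genes with and without an E2F word covered overlapping ranges. The 9 replication genes with an E2F word included Cdc6 and E2f2 as well as Mcm6 and Pola1, and their log2FC over all clones ran from -0.97 to 0.09 with a median of -0.20. The 8 replication genes without such a word ran from -0.36 to -0.08 with a median of -0.14. In E2f2 and Cdt1 the word lay after the start site, which is why their stretches were not shown.

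Mitosis genes lay close to 0 on average and differed in direction. The mitotic kinases Plk1, Aurka and Aurkb were called lower over all clones (log2FC -0.24, -0.11 and -0.08), as were Cdc20 (-0.25) and Ube2c (-0.13), which activate or serve the anaphase-promoting complex, and Bub1b (-0.16) of the spindle checkpoint. The motor gene Kif20a (-0.19) and Cenpf (-0.09) were called lower too. Plk1 went from a median of 105 CPM (89.8 to 114) to 88.1 CPM (65.6 to 93.6) in WT and from 95.6 CPM (89.9 to 100.1) to 83.2 CPM (76.3 to 84.7) in KO libraries, with no overlap within any clone. Among the cyclins, Ccnb1 changed by -0.06 (log2FC), from a median of 166 CPM (139 to 173) to 156 CPM (128 to 170) in WT and from 138 CPM (136 to 150) to 137 CPM (127 to 144) in KO libraries. The ranges of Ccnb1 overlapped. Cdk1 gave -0.10 and Ccnb2 0.04, and the call of Ccnb2 was lost with counts summed per clone and treatment. Mki67, Bub1, Ccna2, Kif11 and Birc5 were not called (edgeR adjusted p from 0.0879 to 0.871). For Mki67 the log2FC was -0.05, with a 95% interval from -0.10 to 0.00, and its median was 1478 CPM (1194 to 1627) in untreated and 1394 CPM (1260 to 1648) in IFNG-treated WT libraries. The KO medians were 1397 CPM (1298 to 1426) and 1347 CPM (1223 to 1469).

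A few mitosis genes went the other way. The 5 of 20 called higher over all clones were near the share of all 14525 genes called higher (24.9%). Nusap1, which bundles spindle microtubules, rose in all 5 clones. It lay at 73.9, 79.5 and 71.3 CPM in untreated WT1, 114.8, 111.2 and 110.9 CPM in WT2 and 124.6, 122.8 and 122.1 CPM in WT3. After IFNG the values were 88.3, 90.6 and 82.4 CPM in WT1, 139.9, 138.9 and 135.1 CPM in WT2 and 144.9, 160.3 and 166.5 CPM in WT3. The libraries of each WT clone were fully separated, although untreated WT1 was far below the other WT clones. In KO clones Nusap1 went from 101.2, 97.3 and 106.2 CPM to 121.7, 118.6 and 113.1 CPM in KO1 and from 95.6, 98.3 and 95.6 CPM to 106.9, 115.0 and 121.7 CPM in KO2. Its log2FC over all clones was 0.27 ± 0.02 (SE; edgeR adjusted p = 9.86e-12). Top2a, the topoisomerase that untangles sister chromatids, rose by 0.14 (log2FC) from a median of 808 CPM (776 to 842) to 878 CPM (820 to 921) in WT and from 720 CPM (693 to 747) to 805 CPM (773 to 853) in KO libraries, and Cenpe, a kinetochore motor, by 0.12. Tpx2, which activates Aurka on the spindle, gave 0.07.

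Each clone was also tested alone. Of the 20 replication genes, 6 were lower after IFNG in WT1, 14 in WT2, 12 in WT3, 11 in KO1 and 10 in KO2, and 0, 0, 1, 0 and 0 were higher. Of the 20 mitosis genes, in the same order of clones, 2, 6, 6, 5 and 4 were lower and 1, 4, 4, 3 and 2 higher. Of all genes tested, 9.47% were called lower and 11.8% higher in WT1, 17% and 17.4% in WT2, 17.5% and 18.6% in WT3, 13.2% and 16.2% in KO1, and 13.2% and 13.9% in KO2. In WT1 the 40 members had a median SE of 0.07, beside 0.04 to 0.05 in the other clones, and a single fit over all 30 libraries called 20 members in WT1 in place of 9. In KO2, 16 members were called, and 10 without untreated library 2. Ccne1, Cdc20, Cdc6, Cdt1, E2f1, E2f2, Mcm3 and Plk1 were called lower in every clone and Nusap1 higher in every clone. Of the 40 members, 17 were called lower in no clone and 5 were called higher in any clone. No member was called in opposite directions in different clones. Shares of all genes called in every clone, in no clone or in opposite directions were not computed. Summed over the 20 replication genes, the level went from 3680 ± 94.3 to 3255 ± 267 CPM in WT1, 4057 ± 86.2 to 3636 ± 21 in WT2, 3807 ± 24.9 to 3353 ± 91.8 in WT3, 3888 ± 13.5 to 3389 ± 85.9 in KO1 and 3722 ± 40.4 to 3394 ± 44.7 in KO2 (SD, n = 3). The sum of the 20 mitosis genes went from 5046 ± 277 to 4936 ± 219 CPM in WT1, 5492 ± 36.9 to 5387 ± 124 in WT2, 5608 ± 71.6 to 5696 ± 162 in WT3, 5059 ± 44.5 to 5020 ± 148 in KO1 and 4831 ± 112 to 4831 ± 168 in KO2 (SD, n = 3). Untreated and IFNG libraries overlapped in this sum in all 5 clones, and the mean was higher after IFNG in WT3.

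**Figure D4:**
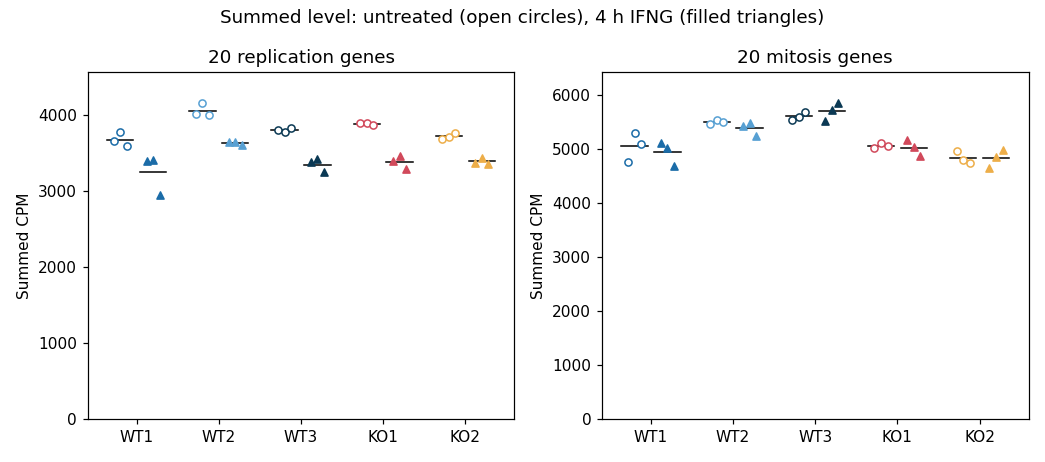
Summed CPM of the 20 replication genes (left) and the 20 mitosis genes (right) in each library (y axis, from 0) by clone (x axis), untreated (open circles) or after 4 h IFNG (filled triangles), with means as black lines. Replication sums of IFNG libraries lie below the untreated libraries of the same clone in all 5 clones, and WT1 holds the low library at 2946 CPM.

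Whether the knockout altered this response was tested directly. None of the 40 members differed in its IFNG response between KO and WT clones (0 called by edgeR, 0 at an unadjusted p under 0.05 and 0 by DESeq2), where 1.02% of all 14682 genes were called. The difference in log2FC, KO minus WT, ran from -0.09 for Cdc6 to 0.07 for Pcna, and the outermost 95% bounds over the 40 members were -0.22 and 0.21. For E2f2 the difference was 0.03, with an interval from -0.09 to 0.15, and for Nusap1 -0.06, from -0.16 to 0.04. A joint test over the 5 clones also called 0 members (0 at an unadjusted p under 0.05, 0 by DESeq2), where 3.68% of all 14870 genes were called. In the same test of KO against WT, Dicer1 did differ (-0.36 ± 0.05 SE).

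Other genes of the same pathways were tested in the same fits. Of all 14525 genes tested over all clones, 28.3% were called lower and 24.9% higher. Of 22 further replication genes, 16 were lower and 1 higher over all clones, with a median log2FC of -0.19. The 3 with the largest change were Dtl (-0.67 ± 0.03 SE), which targets Cdt1 for destruction, the origin recognition subunit Orc1 (-0.45 ± 0.04) and Slbp (-0.43 ± 0.02), which binds histone mRNAs. Of 27 further mitosis genes, 14 were lower and 0 higher (6 had a positive log2FC), led by the Cdk-activating phosphatase Cdc25b (-0.32 ± 0.02), separase Espl1 (-0.28 ± 0.03) and Anln (-0.28 ± 0.02) of the cleavage furrow. Of 26 tested genes of G1 control, 12 were lower and 7 higher, and the share called higher was near that over all genes. Cdkn1a, the p21 inhibitor of cyclin-dependent kinases, rose (0.66 ± 0.02) and so did the antiproliferative gene Btg1 (0.77 ± 0.04), whereas cyclin D1 (Ccnd1, -0.60 ± 0.03) and Myc (-0.43 ± 0.06) fell. The E2F repressors E2f7 and E2f8, chosen after their values were seen, had opposite signs, with E2f7 at -0.40 ± 0.03 and E2f8 at 0.36 ± 0.03. Cdkn1a was higher after IFNG in every clone, from 95.2 to 162.1 CPM to 149.3 to 244.7 CPM in WT libraries and from 177.0 to 272.6 CPM to 283.7 to 390.0 CPM in KO libraries.

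Before any treatment, several mitosis genes were lower in KO than in WT libraries. Of 20 mitosis genes, 8 were called lower and 1 higher, and of 20 replication genes, 3 were lower and 2 higher (9 WT against 6 KO libraries). Of all 13886 genes tested, 14.4% were called lower and 12.2% higher. Since clones and not libraries were edited, the same test on counts summed per clone, with 3 WT against 2 KO clones, called 0 members (edgeR, 7 at an unadjusted p under 0.05) and 1 gene in all. The count also rested on the WT clones chosen, because it rose from 14 to 26 members without WT1.

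Cenpf, a large kinetochore and nuclear matrix protein, had a median of 258 CPM (229 to 284) in untreated WT and 199 CPM (175 to 204) in untreated KO libraries, with no overlap. Its log2FC was -0.40 ± 0.05 (SE), and -0.36 for KO1 and -0.44 for KO2 alone against WT, but with counts summed per clone its edgeR adjusted p was 0.264. Cenpe, the kinetochore motor, had a median of 305 CPM (249 to 324) in WT and 245 CPM (238 to 256) in KO libraries (log2FC -0.28 ± 0.05 SE), with slight overlap. The other mitosis genes called lower were Kif11, Aurkb, Ccnb2, Ccnb1, Top2a and Ccna2, with log2FC from -0.24 to -0.17, and Bub1 was higher (0.13). Both KO clone means lay below all 3 WT clone means for 7 mitosis genes, namely Aurkb, Ccnb1, Ccnb2, Cenpe, Cenpf, Kif11 and Top2a. They lay above all 3 for 2 mitosis genes, Bub1 and Tpx2. Of 20 replication genes, 3 lay below and 2 above. The share of all genes in either position was not computed, so these counts have no background beside them. Of the 27 further mitosis genes, 14 were called lower and 0 higher (1 had a positive log2FC).

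**Figure D5:**
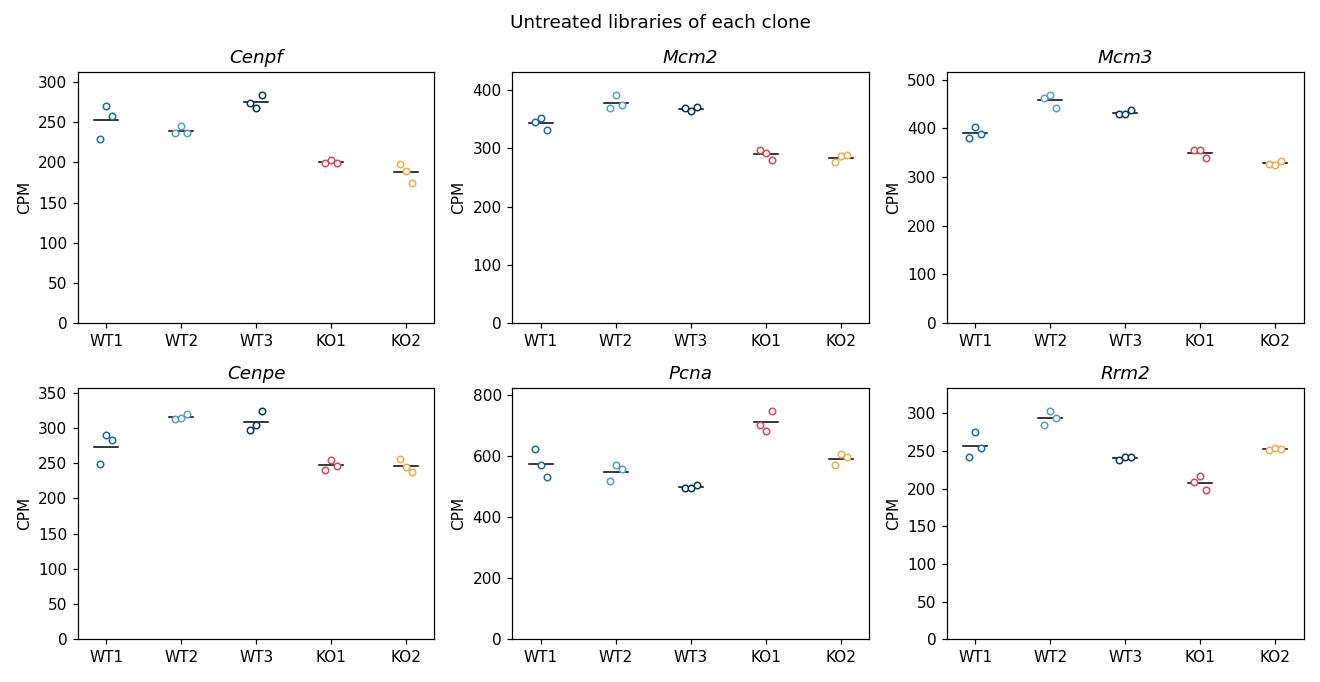
CPM of each untreated library (y axis, from 0) by clone (x axis), with the mean of 3 libraries as a black line, for the 4 members with the largest difference between KO and WT and for Pcna and Rrm2. Cenpf, Mcm2 and Mcm3 are lower in both KO clones than in every WT library, whereas Pcna is highest and Rrm2 lowest in KO1.

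Among replication genes, 2 of the helicase subunits were lower and the other 4 were not called. Mcm2 had a median of 368 CPM (332 to 392) in WT and 287 CPM (277 to 297) in KO libraries (log2FC -0.34 ± 0.03 SE), and Mcm3 429 CPM (381 to 469) and 336 CPM (325 to 355), a log2FC of -0.34 ± 0.05 (SE). The KO and WT libraries of both did not overlap, yet Mcm4, Mcm5, Mcm6 and Mcm7, which join the same ring, had log2FC of 0.06, 0.05, 0.01 and 0.00 and were not called. Mcm2 lies on chromosome 6, where the 599 expressed genes had a median shift of -0.24 in KO1 and -0.27 in KO2 against WT on the log2 scale, and the part of that shift in Mcm2 was not tested. Chromosome 1 holds Mcm3, Mcm6 and Cenpf. Its 756 expressed genes had shifts of -0.08 in KO1 and -0.06 in KO2, and the part of those shifts in these members was not tested. Pcna and E2f1 were called higher in KO (0.26 ± 0.06 and 0.13 ± 0.04 SE), and E2f2 was lower (-0.13 ± 0.04). Of the 8 members on chromosome 2, Pcna, E2f1 and Bub1 were called and Aurka, Bub1b, Ube2c, Tpx2 and Nusap1 were not. The 970 expressed genes of chromosome 2 had shifts of 0.08 in KO1 and 0.07 in KO2. The part of those shifts in any of these members was not tested. Rrm2 was not called (-0.20 ± 0.07, edgeR adjusted p = 0.0568), and it was low in KO1 alone, at 209.4, 216.3 and 198.9 CPM against 251.8 to 254.1 CPM in KO2. Rrm2 lies on chromosome 12, where 428 expressed genes had a median shift of -0.36 in KO1 and -0.00 in KO2. The part of that shift in Rrm2 was not tested.

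The comparison was repeated after IFNG. In treated libraries 8 mitosis genes were lower and 0 higher in KO (3 had a positive log2FC), and 2 replication genes were lower and 1 higher, where 13% of all 13637 genes were called lower and 10.9% higher. Cenpf, Mcm2 and Mcm3 had log2FC of -0.41, -0.38 and -0.34. With counts summed per clone 0 members were called here too (edgeR, 6 at an unadjusted p under 0.05), and the 11 members called became 23 without WT1, 7 without WT3 and 5 without KO1. The sum of the 8 macrophage markers differed between genotypes, at 4096 to 5431 CPM in untreated WT and 5901 to 6630 CPM in untreated KO libraries and at 4315 to 5617 CPM and 6103 to 6538 CPM after IFNG. Single markers did not all follow the sum. In both treatments Adgre1 and Csf1r were higher in every KO than in every WT library, Mertk was lower in every KO library (17.2 to 26 CPM against 28.5 to 59.8 CPM untreated), and the other 5 overlapped. Lyz2, one of those 5, lay at 826 to 891 CPM in untreated WT1 and reached 2183 CPM in the other WT clones. Cdkn1a was higher in untreated KO libraries (0.88 ± 0.14 SE). The part of these in the lower mitosis genes was not tested.

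Unedited clones differed as well. Among WT1, WT2 and WT3, untreated, 27 of the 40 members were called (12 replication and 15 mitosis genes), where 59.5% of all 13971 genes were called. WT1 had the lowest untreated mean of all 5 clones for 19 members and KO2 for 14. Among mitosis genes KO2 was lowest for 10 and WT1 for 8. Such shares over all genes were not computed. Nusap1 had the widest range of WT clone means, 0.72 on the log2 scale, beside a median of 0.20 over the 40 members.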

How the data were processed

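RNA-seq libraries were made from polyadenylated RNA (KAPA mRNA HyperPrep) and sequenced as paired ends. The file holds unnormalized counts per gene as deposited. To make them, the authors ran BBDuk for trimming and HISAT2 2.1.0 for alignment (build mm10), kept unique alignments, merged technical replicates with SAMtools 1.10 and counted exons with featureCounts 1.6.2 on the reverse strand. Fragments over overlapping genes were counted for each of them. The annotation was RefSeq according to the methods but Gencode vM18 according to the file header. One table with the 30 libraries was analysed, and fold changes made by the authors were left out.

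All genes were fitted with edgeR 4.0.16 under R 4.3.3 (genes kept by filterByExpr, TMM scaling, quasi-likelihood F test), with Benjamini-Hochberg adjustment over all genes tested and a threshold of 0.05. CPM values used TMM-scaled library sizes. The SE of a log2FC is its size divided by the square root of F. Over all clones, clone was a term. KO against WT was tested on 9 and 6 libraries, without a clone term. Scripts were tested on simulated data. Alternatives were DESeq2 1.42.0, RLE normalization, other count filters, leaving out libraries or clones, and counts summed per clone. Depth ranged from 15566122 to 37992642 counted fragments, and precision is given by the SE.

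The members and lists were chosen with earlier results of these data known. Values by library or range were given for the 4 members with the largest log2FC in each direction over all clones, the 4 with the largest difference between untreated KO and WT, and Mcm5, Pcna, Cdc6, Ccne2, E2f1, Rrm2, Mki67, Top2a, Ccnb1 and Plk1. From each further list the 3 largest changes were named, plus Ccnd1, Cdkn1a and Myc. Libraries are numbered 1 to 3 within clone and treatment by sequencing index, as names only. The names WT2 and WT3 rest on which libraries the deposited tables of those clones list. Labels give more than 1 RNA input and adapter type without assigning them, so batches could not be checked. No pair of libraries agreed within sampling noise.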

Additional observations from a re-analysis of the deposited data

Results flagged for a closer look

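Of 80 groups of libraries checked for a value far from the others, 3 held one, and chance gives about 1 in 20. Ccne2 was at 42.8 CPM in IFNG library 2 of WT1, above the other 8 IFNG libraries of WT clones. Cenpf was at 162 CPM in IFNG library 1 of KO2, below the other 5 IFNG libraries of KO clones. Mki67 was at 1194 CPM in untreated library 1 of WT1, below the other 8 untreated WT libraries.

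With libraries as replicates, the IFNG response was called different between KO and WT (edgeR, interaction of treatment and genotype) for genes outside the 40 members. The difference, KO minus WT on the log2 scale, was 0.24 for Ccnd1, 0.50 for Btg2 and -0.36 for Dicer1. It was 0.85 for the IFNG-induced guanylate-binding protein gene Gbp2b, which lay at only 1.9 to 3.7 CPM in untreated libraries. Results with counts summed per clone and treatment are not given for these genes, and only 3 WT and 2 KO clones were compared.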

How the results depend on the processing

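No result changed direction under any alternative run. Over all clones, 35 members were called, 33 to 35 when a clone or IFNG library 3 of WT1 was left out, and 22 without the clone term. The fit without that library was chosen after seeing the data. In WT1, 9 members were called, 15 with no filter on low counts, 20 in 1 fit over all 30 libraries and 6 to 10 with a library left out. In KO2, 16 were called and 10 to 18 with a library left out. Untreated KO against WT gave 14 members, 0 with counts summed per clone and 10 to 26 with a clone left out (26 without WT1). After IFNG the 11 members became 0 with summed counts and 5 to 23 with a clone or library left out (23 without WT1, 7 without WT3, 5 without KO1), and 15 without IFNG library 3 of WT1. Without the clone term the calls of Cenpe, Cenpf, Mcm2, Pcna, Rrm2, Ccnb1 and Pola1 over all clones were lost, while Mki67 was called with no filter (log2FC -0.06). Where no cause is given by the construction of the alternative, the cause was not tested. No paired analysis was possible because the count columns carry no replicate number. Every member had at least 395 counts in every library, and the genotypes rest on 3 WT and 2 KO clones.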
